A study of Mus musculus with 16 samples.

Results

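The 43 genes described here are macrophage and myeloid genes, chosen by name from textbook knowledge of the lineage and not by a measured value. Earlier results of these data were known when they were chosen. They cover growth factors and cytokine receptors (4 genes), lineage and surface genes (11), scavenger and tissue-resident receptors (8), Fc receptors and their adaptors (5), pattern-recognition and complement receptors (6), lysosomal and phagosomal proteins (7) and secreted inflammatory cytokines (2). Each gene was read from 1 probe, the brightest of those that carry its name, so the set made up 43 of the 24372 features tested. All 43 were measured: 42 were well above background on all 16 arrays, and C5ar1 on 15. Not all are confined to macrophages, since Fcer1g and Csf2rb are also used by mast cells, Cd36 by adipocytes and endothelium, and Csf1 is made by stromal cells.

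Macrophages are resident phagocytes of most tissues and depend on the growth factor CSF1 and its receptor for survival. In the ovary they clear dying follicular and luteal cells, and they gather in the stroma of ageing ovaries. They engulf debris through scavenger, Fc and complement receptors, digest it in lysosomes rich in cathepsins, and signal through small adaptor proteins that carry an immunoreceptor tyrosine-based activation motif (ITAM).

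The study asked how the estrogen receptors ERα (gene Esr1) and ERβ (gene Esr2) bear on granulosa cell identity in aged ovaries. Total RNA from whole mouse ovaries aged 1 year was labelled with the dye Cy3 and hybridised to single-colour Agilent arrays, 16 in all, with 4 in each of 4 groups. The groups were Ex3abERKO, which lacked both receptors, Ex3aERKO, the ERα knockout, Ex3bERKO, the ERβ knockout, and a control. The control was not wild type, since its label gives it a single allele of each receptor. The labels name no Cre driver, strain or cell type for the deletions, and do not say which stretch of either gene was removed. An array is called by its group and number. Nothing in the labels says whether the 4 samples of 1 group were taken from different mice, and the p-values therefore cover the spread among these samples alone, which may be technical.

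A level is given as log2 of a probe's processed signal relative to the 75th percentile of its array, so that 0 means the brightness of that percentile. Levels of different genes come from different probes and are not set against each other. A difference is a difference of group means of these levels, ± its standard error from limma, and a gene was called at a Benjamini-Hochberg adjusted p under 0.05 over all 24372 features. In bulk ovary, fewer cells of a type and less RNA per cell cannot be told apart, and neither can more of either.

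The deleted genes were checked first. Esr1 lay between -2.10 and -1.03 on the Ex3abERKO arrays and between -3.65 and -1.89 on the Ex3aERKO arrays, against -0.32 to 0.20 on the control arrays. Esr2 lay between -2.53 and -1.60 on the Ex3abERKO arrays, against -0.33 to 0.35 on the control arrays. On the arrays labelled Ex3bERKO, Esr2 lay between -0.58 and 1.00 and overlapped the control arrays (difference 0.43 ± 0.51, adjusted p = 0.914). By the same probe, the Ex3abERKO difference was -1.97 ± 0.51 from control (adjusted p = 0.0131) and -2.40 ± 0.51 from the arrays labelled Ex3bERKO (adjusted p = 0.00628). The probe thus read less Esr2 on the Ex3abERKO arrays and no less on those labelled Ex3bERKO. Summed signal of 10 granulosa genes was also 56.8 to 108.2 on the Ex3abERKO arrays, 120.0 to 171.1 on the Ex3bERKO arrays and 122.3 to 212.1 on the control arrays. Its part in the Esr2 difference was not tested. Where the probe lies relative to the stretch removed in each group is not given in the sources used here. The probe therefore neither bears out the Ex3bERKO label nor shows it to be wrong. Ex3bERKO is used throughout as the label of these arrays, and each direction drawn from them carries this limit. The arrays lay on 4 slides, their 75th percentiles ran from 1211 to 1806 intensity units, and 80.4 to 87.6% of spots were well above background. Within groups, the correlation between arrays was 0.954 to 0.986 over all features. Besides these, 3 arrays stood apart by genes of other tissues: summed signal of 5 liver genes was 112.8 on Ex3aERKO 2 against at most 5.01 on the other Ex3aERKO arrays, that of 6 oviduct genes was 51.9 on Ex3abERKO 2 against at most 1.36 on the other Ex3abERKO arrays, and that of 5 erythroid genes was 132.9 on control 4 against at most 15.2 on the other control arrays. Erythroid signal was also 33.5 to 99.4 on the Ex3abERKO arrays and 29.5 to 94.7 on the Ex3aERKO arrays, all above those other 3 control arrays, and 12.4 to 45.1 on the Ex3bERKO arrays. Its part in the results was not tested. Results are given with and without these 3 arrays.

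Across the 43 genes, Ex3abERKO ovaries stood highest. In Ex3abERKO against control, 37 of the 43 genes were called higher and 0 lower, where 10.7% of all features were called higher and 11.7% lower. The median difference over the 43 genes was 1.67, and over all features -0.10. Of the 37 called genes, 34 were more than 2-fold higher and 13 more than 4-fold. For 36 genes all 4 Ex3abERKO arrays lay above all 4 control arrays, an order that 11.6% of all features showed. The 6 genes not called were Spi1, Timd4, Folr2, Fcgr1, Il1b and Tnf. Without the 3 arrays that stood apart, 33 genes were called.

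Ex3aERKO ovaries came next. In Ex3aERKO against control, 10 of the 43 genes were called higher (Csf1, Mpeg1, Ms4a6d, Mrc1, Cd163, Fcgr2b, Clec7a, Clec4n, Slc11a1 and Ncf1) and 0 lower, against 3.86% and 4.2% of all features. The median difference was 0.91, against -0.08 over all features, and all 10 were among the genes called in Ex3abERKO. In 12 genes the Ex3aERKO arrays all lay above the control arrays, an order that 7.43% of all features showed. The count of 10 called genes rested on single arrays. It was 21 without Ex3aERKO 4, 3 without Ex3aERKO 2, without Ex3aERKO 3 or without control 3, and 4 without control 1. It was between 5 and 6 without Ex3bERKO 1, Ex3bERKO 3, Ex3abERKO 2 or Ex3abERKO 4, and 1 without the 3 arrays that stood apart. That 1 gene was Clec4n.

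On the arrays labelled Ex3bERKO, limma called 0 of the 43 genes higher and 0 lower against control, where it called 0.398% of all features higher and 0.656% lower. At an unadjusted p under 0.05, 4 of the 43 genes were higher and 0 lower, against 4.9% of all features in each direction. The median difference was 0.41, and only Fcgr2b had all 4 Ex3bERKO arrays above all 4 control arrays, an order that 3.76% of all features showed. That median was 0.25 without Ex3bERKO 2 and 0.62 without Ex3bERKO 4. The 3 knockouts share the same 4 control arrays, so the comparisons with control are not independent of each other.

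**Figure D1:**
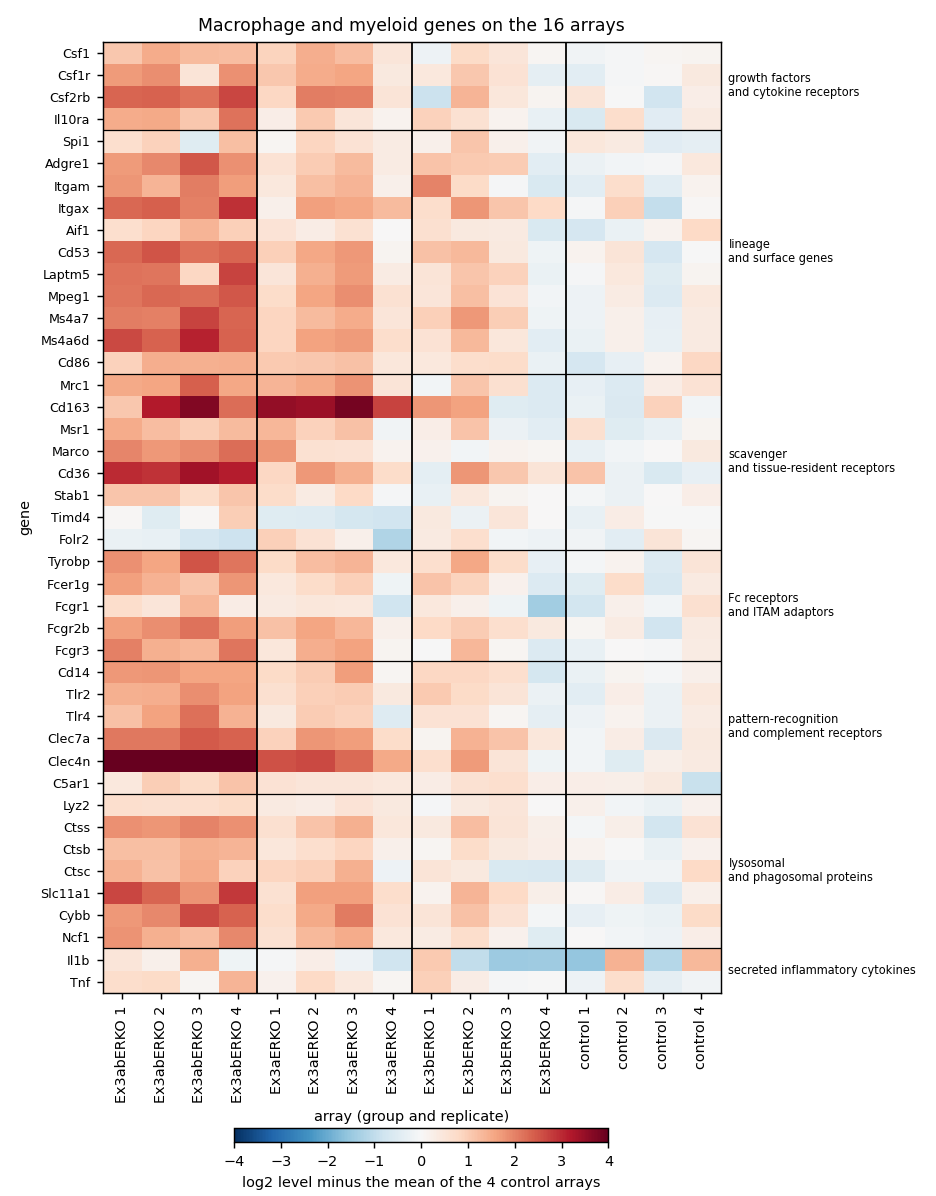
Heat map of the 43 genes (rows, grouped by role) on the 16 arrays (columns, grouped by genotype), each value being the log2 level minus the mean of the 4 control arrays. Red stands for higher and blue for lower, and the Ex3abERKO columns are red for most genes, with Folr2 among the exceptions.

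The mean differences between knockouts do not use the control arrays. Their standard errors and calls do, since the spread was estimated over all the groups together. In Ex3abERKO against Ex3aERKO, 9 genes were called higher (Adgre1, Ms4a7, Ms4a6d, Marco, Cd36, Tlr4, Clec4n, Ctsb and Slc11a1), against 4.43% of all features, with a median difference of 0.82. In Ex3abERKO against the arrays labelled Ex3bERKO, 30 genes were called higher, against 8.27% of all features, with a median difference of 1.26. In Ex3aERKO against Ex3bERKO, 2 genes were called higher, Cd163 and Clec4n, against 0.656% of all features, with a median difference of 0.40. That median was 0.21 without Ex3bERKO 4, 0.25 without Ex3aERKO 2 or Ex3aERKO 3, and 0.64 without Ex3aERKO 4. The Ex3abERKO arrays did not overlap the Ex3aERKO arrays for 22 genes, all higher, where 7.84% of all features lay higher and 6.1% lower without overlap. They did not overlap the Ex3bERKO arrays for 29 genes that were higher (9.18% of all features) and 1, Folr2, that was lower (10.3%). Between Ex3aERKO and Ex3bERKO, Cd163 was higher without overlap (3.15% of all features) and Timd4 lower (5.27%). No gene was called lower in any of the 3 comparisons, where 3.35%, 8.43% and 1.7% of all features were. Without Ex3aERKO 4 the count of 9 was 1 and Folr2 was called lower, without Ex3aERKO 1 it was 3, without Ex3abERKO 4 it was 5, and without the 3 arrays that stood apart it was 2. The count of 30 was 19 without Ex3bERKO 4, and 22 of the 30 calls were kept without the 3 arrays that stood apart. Neither Cd163 nor Clec4n was called in Ex3aERKO against Ex3bERKO without the 3 arrays, or without any one of Ex3aERKO 1, 2 or 3 or Ex3bERKO 3 or 4.

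Group means followed 1 order for most of the set. The Ex3abERKO mean was the highest of the 4 for 40 genes, the control mean the lowest for 38, and the order Ex3abERKO, Ex3aERKO, Ex3bERKO, control held for 37. Within slides the step between Ex3aERKO and Ex3bERKO did not hold: 12 genes were higher in Ex3aERKO on all 3 slides with both groups, 1 was lower and 30 were mixed, and the median ran from -0.12 to 0.56. None of these counts was made over all features, and the 43 genes moved together within groups, so they are not 43 independent results. Spread within a group was smallest in Ex3abERKO, where the median SD over the 43 genes was 0.30, against 0.51 in Ex3aERKO, 0.56 in Ex3bERKO and 0.46 in control. The interaction contrast asks whether the Ex3abERKO level differed from the sum of the 2 single differences. It was called for 0 of the 43 genes by limma, where 1.84% of all features were called higher and 1.78% lower. At an unadjusted limma p under 0.05, 2 genes were higher (Clec4n and Marco) and 0 lower. That count has no share of all features at the same threshold beside it, so nothing is drawn from it. The interaction estimate was positive for 36 of the 43 genes and 50.1% of all features.

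**Figure D2:**
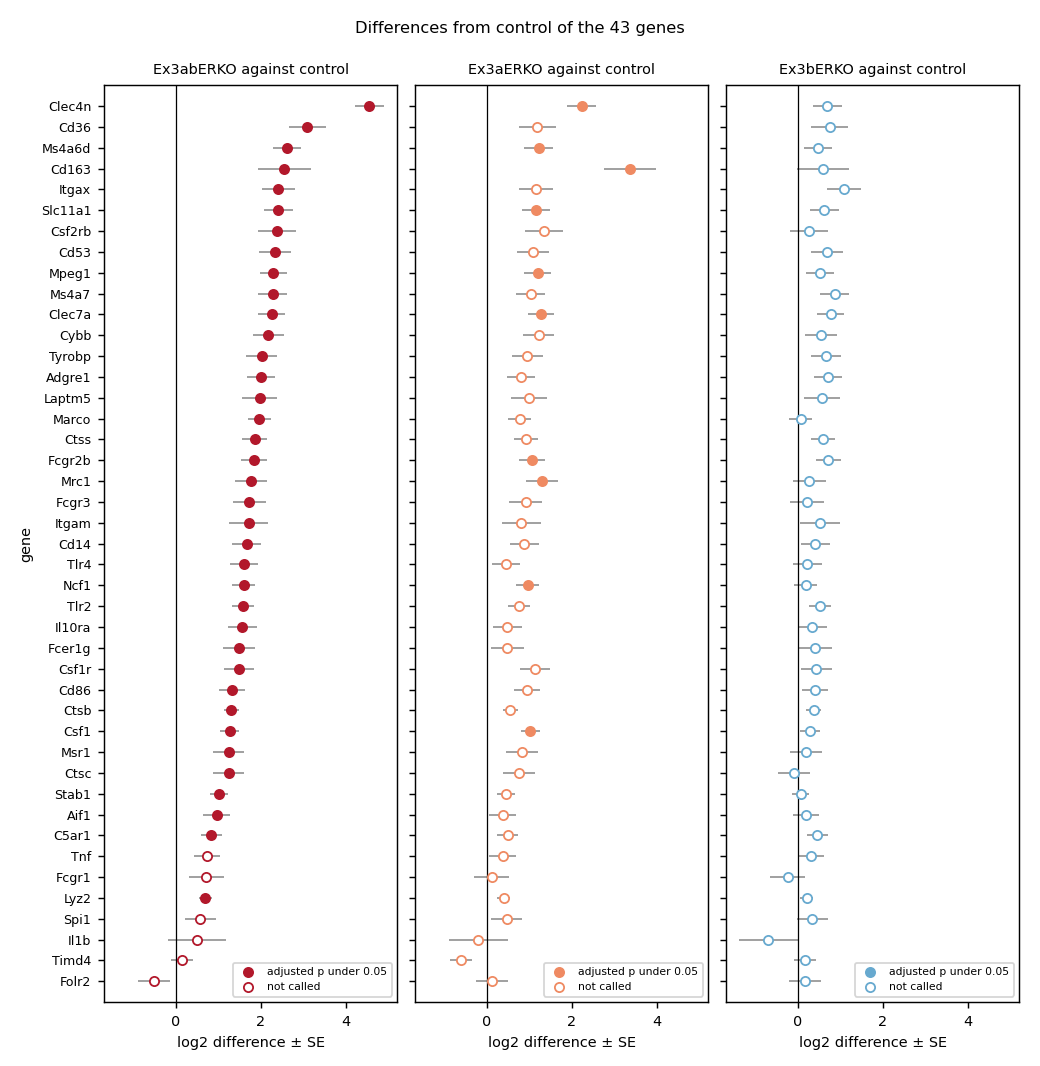
Log2 difference from control ± SE of each of the 43 genes (rows, ordered by the Ex3abERKO difference) in Ex3abERKO, Ex3aERKO and Ex3bERKO (panels). Filled points had an adjusted p under 0.05: 37 in Ex3abERKO, 10 in Ex3aERKO and 0 in Ex3bERKO.

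The arrays of a group did not all carry these genes to the same extent. Relative to the control mean, the median of the 43 genes on a single array was 1.57 to 1.78 among the Ex3abERKO arrays, 0.32 to 1.37 among the Ex3aERKO arrays, -0.19 to 1.00 among the Ex3bERKO arrays and -0.27 to 0.33 among the control arrays. Ex3aERKO 4 was the lowest Ex3aERKO array for 39 of the 43 genes, and Ex3bERKO 4 the lowest of its group for 30. Control 4 was the highest control array for 25 genes. Within groups the genes moved together: over the 903 pairs of genes, the correlation across the 16 arrays of their deviations from the group means had a median of 0.47 and was positive for 89.5%. These deviations share each array's scaling, RNA and tissue makeup. C5ar1, Marco and Timd4 had the lowest median correlation with the other members, at -0.08, 0.04 and 0.09, and Mpeg1 the highest, at 0.68.

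Slide was a batch shared across groups. Of the slides, 2 held 1 array of each group, 1 lacked Ex3bERKO and 1 lacked Ex3abERKO. Over all features, arrays of the same slide deviated from their group means together (median correlation 0.28 over 22 pairs), against -0.07 over 74 pairs of different slides. Within slides, the median Ex3abERKO difference from control was 2.04, 1.25 and 1.89 on slides 1, 2 and 4, and 37 of the 43 genes were higher on all 3 slides. The median Ex3aERKO difference from control was 1.38, 1.07, 0.63 and 0.60 on slides 1 to 4, and 29 genes were higher on all 4. The median Ex3bERKO difference from control was 1.16, 0.03 and 0.61 on slides 1, 3 and 4, and 20 genes were higher on all 3. In Ex3abERKO against Ex3aERKO 31 genes were higher on all 3 shared slides, with medians of 0.33 to 1.48, and in Ex3abERKO against Ex3bERKO 36 on both shared slides, with medians of 0.80 and 1.35. The counts of genes higher on every slide have no share over all features beside them, since it was not counted. With slide as a fixed block, 36 genes were called in Ex3abERKO and 15 in Ex3aERKO against control. With the same block the count in Ex3abERKO against Ex3bERKO was 14.

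The growth factor and cytokine receptor genes were all called higher in Ex3abERKO. Csf1 encodes the growth factor that macrophages depend on. Its level was 0.87, 1.28, 1.04 and 1.02 on the Ex3abERKO arrays, 0.69, 1.23, 1.02 and 0.28 on the Ex3aERKO arrays, -0.42, 0.56, 0.27 and -0.12 on the Ex3bERKO arrays, and -0.36, -0.24, -0.13 and -0.11 on the control arrays. Every Ex3abERKO and Ex3aERKO array lay above every control array, and the Ex3bERKO arrays overlapped them. The difference from control was 1.26 ± 0.23 in Ex3abERKO (adjusted p = 0.00127) and 1.02 ± 0.23 in Ex3aERKO (adjusted p = 0.0123). Without the 3 arrays that stood apart, the adjusted p in Ex3aERKO was 0.105.

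Csf1r, the receptor for CSF1, had levels of 2.96, 3.13, 1.80 and 3.1 on the Ex3abERKO arrays, 2.33, 2.76, 2.84 and 1.65 on the Ex3aERKO arrays, 1.69, 2.34, 1.86 and 0.91 on the Ex3bERKO arrays, and 0.85, 1.23, 1.32 and 1.66 on the control arrays. The Ex3abERKO arrays lay above the control arrays, with Ex3abERKO 3 far below its group. The difference from control was 1.48 ± 0.36 in Ex3abERKO (adjusted p = 0.00918) and 1.13 ± 0.36 in Ex3aERKO (adjusted p = 0.0727). The 2 dimmer Csf1r probes gave Ex3abERKO differences of 0.89 and 0.10, and with the mean of all 3 probes the gene was not called (adjusted p = 0.103). Csf2rb, the shared beta chain of the receptors for GM-CSF, IL-3 and IL-5, was 2.39 ± 0.45 higher in Ex3abERKO (adjusted p = 0.00174). Its 2 dimmer probes gave 0.07 and 0.52, and it has a near-identical neighbour gene, Csf2rb2, so its value is uncertain. Il10ra, the ligand-binding chain of the interleukin-10 receptor, was 1.56 ± 0.35 higher (adjusted p = 0.00521).

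Among the lineage and surface genes, 10 of 11 were called higher in Ex3abERKO and 2, Mpeg1 and Ms4a6d, in Ex3aERKO. Spi1 encodes PU.1, the transcription factor that directs the myeloid lineage, and was not called. Its level was -4.58, -4.35, -5.75 and -4.04 on the Ex3abERKO arrays, -5.16, -4.41, -4.66 and -4.93 on the Ex3aERKO arrays, -5.05, -4.15, -5.06 and -5.38 on the Ex3bERKO arrays, and -4.81, -4.90, -5.70 and -5.60 on the control arrays. All 4 groups overlapped, and the Ex3abERKO difference was 0.57 ± 0.36 (adjusted p = 0.291). This single probe was dim, though well above background on all 16 arrays.

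PU.1 binds purine-rich DNA with a GGAA core, and its preferred site reads GAGGAAGT. In the 250 bases before the start of the gene, on either strand, this letter string was present in 1 of the 30 members with an entry in the RefSeq promoter table of the assembly GRCm38.p6, and in 2.79% of all 27025 genes in that table. The shorter string AGGAAGT, which lies inside the longer one, was present in 7 of the 30 members (23.3%), against 8.8% of all genes. It was present in 4 of the 25 matched members that were called in Ex3abERKO (Mrc1, C5ar1, Lyz2 and Ctsc) and in 3 of the 5 that were not (Folr2, Fcgr1 and Tnf). The following stretches, read 5′ to 3′ on the gene's strand, show the match in capitals, written as ACTTCCT where it lies on the other strand. The first 3 genes were called in Ex3abERKO, and the last 2 were not.
Mrc1 (chr2:14229164-14229254, plus strand): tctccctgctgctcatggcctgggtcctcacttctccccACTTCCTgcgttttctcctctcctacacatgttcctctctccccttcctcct
Lyz2 (chr10:117282321-117282417, minus strand): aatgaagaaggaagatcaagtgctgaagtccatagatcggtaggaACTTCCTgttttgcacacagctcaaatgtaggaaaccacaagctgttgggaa
Ctsc (chr7:88277889-88277985, plus strand): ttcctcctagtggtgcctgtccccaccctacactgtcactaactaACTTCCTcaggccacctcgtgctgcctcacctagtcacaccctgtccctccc
Folr2 (chr7:101857221-101857317, minus strand): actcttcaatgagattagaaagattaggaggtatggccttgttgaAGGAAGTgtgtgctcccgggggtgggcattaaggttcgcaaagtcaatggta
Tnf (chr17:35202040-35202136, minus strand): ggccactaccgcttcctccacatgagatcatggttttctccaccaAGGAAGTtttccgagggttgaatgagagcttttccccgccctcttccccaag
The match is a description of these letters, with no test, and the string was seen in members on both sides of the threshold.

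Adgre1 encodes F4/80, the classical surface marker of mouse macrophages. It stood at 3.73, 3.95, 4.53 and 3.87 on the Ex3abERKO arrays, 2.60, 3.03, 3.30 and 2.35 on the Ex3aERKO arrays, 3.18, 3.08, 3.06 and 1.59 on the Ex3bERKO arrays, and 1.79, 1.90, 1.98 and 2.44 on the control arrays. The Ex3abERKO arrays lay above all 12 others. The Ex3abERKO difference was 1.99 ± 0.33 from control (adjusted p = 0.000822) and 1.20 ± 0.33 from Ex3aERKO (adjusted p = 0.0392), where the call was lost in 16 of 30 alternatives, slide as a fixed block and leaving out any one of 9 arrays among them. Mpeg1 encodes perforin-2, a pore-forming protein of phagosomes. It stood at 6.23, 6.38, 6.32 and 6.55 on the Ex3abERKO arrays, 4.82, 5.67, 5.93 and 4.69 on the Ex3aERKO arrays, 4.56, 5.29, 4.62 and 3.96 on the Ex3bERKO arrays, and 3.88, 4.42, 3.54 and 4.50 on the control arrays. As for Adgre1, all Ex3abERKO arrays lay above all 12 others. Unlike for Adgre1, every Ex3aERKO array also lay above every control array for Mpeg1. The difference from control was 2.29 ± 0.32 in Ex3abERKO (adjusted p = 0.000272) and 1.19 ± 0.32 in Ex3aERKO (adjusted p = 0.0335, lost in 6 of 30 alternatives).

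Ms4a7 and Ms4a6d belong to a family of 4-pass membrane proteins and lie near each other on chromosome 19, with 7 protein-coding genes between them. Ms4a6d was 2.61 ± 0.34 higher in Ex3abERKO (adjusted p = 0.000162) and 1.22 ± 0.34 higher in Ex3aERKO (adjusted p = 0.0383), and its second probe gave 2.61 in Ex3abERKO. Ms4a7 was 2.27 ± 0.34 higher in Ex3abERKO (adjusted p = 0.000413) and 1.03 ± 0.34 in Ex3aERKO (adjusted p = 0.0813). The Ms4a6d call in Ex3aERKO was lost in 10 of 30 alternatives. Both were also called in Ex3abERKO against Ex3aERKO, where the Ms4a7 call was lost in 12 of 30 alternatives and the Ms4a6d call in 3.

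Itgam (CD11b) and Itgax (CD11c) encode integrin alpha chains of phagocytes and dendritic cells and are adjacent genes on chromosome 7. The Ex3abERKO difference was 1.71 ± 0.46 for Itgam (adjusted p = 0.0161) and 2.41 ± 0.40 for Itgax (adjusted p = 0.000784). Itgam was not called without control 3 or without the 3 arrays that stood apart. On the arrays labelled Ex3bERKO, Itgax had the largest difference of the 43 genes, 1.09 ± 0.40, with an adjusted p of 0.307. The other called genes of this role were Cd53 (2.33 ± 0.38), a tetraspanin of leukocytes, Laptm5 (1.97 ± 0.42), a lysosomal membrane protein of blood cells, Cd86 (1.31 ± 0.31), a costimulatory ligand for T cells, and Aif1 (0.96 ± 0.32), which encodes the macrophage marker IBA1. Aif1 was close to the threshold (adjusted p = 0.0408) and lost its call when any one of 9 arrays was left out.

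The scavenger and tissue-resident receptors were the most divided role. In Ex3abERKO 6 of the 8 were called higher, and Timd4 and Folr2 were not. Cd163, the receptor for haemoglobin-haptoglobin complexes, stood at -1.92, 0.18, 0.70 and -0.76 on the Ex3abERKO arrays, 0.50, 0.43, 0.82 and -0.31 on the Ex3aERKO arrays, -1.24, -1.40, -3.49 and -3.55 on the Ex3bERKO arrays, and -3.26, -3.58, -2.08 and -3.10 on the control arrays. It was the only one of the 43 genes with its highest mean in Ex3aERKO, although the Ex3abERKO and Ex3aERKO arrays overlapped (difference -0.81 ± 0.62, adjusted p = 0.502). The difference from control was 2.55 ± 0.62 in Ex3abERKO (adjusted p = 0.00867) and 3.37 ± 0.62 in Ex3aERKO (adjusted p = 0.00413), a fold of 10.3. Without the 3 arrays that stood apart, both calls were lost, with an adjusted p of 0.0506 in Ex3aERKO.

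Cd36, a scavenger receptor and fatty acid transporter, had the second largest Ex3abERKO difference of the set. It stood at 4.08, 3.97, 4.44 and 4.22 on the Ex3abERKO arrays, 1.93, 2.83, 2.51 and 1.82 on the Ex3aERKO arrays, 0.71, 2.86, 2.18 and 1.61 on the Ex3bERKO arrays, and 2.24, 0.86, 0.49 and 0.77 on the control arrays. Every Ex3abERKO array lay above all others, while the other 3 groups overlapped. The Ex3abERKO difference was 3.09 ± 0.43 from control (adjusted p = 0.000272), a fold of 8.50, and 1.91 ± 0.43 from Ex3aERKO (adjusted p = 0.0158, and 0.051 without Ex3aERKO 4). Its second probe gave 3.05 from control. Adipocytes and endothelium also carry Cd36: of 8 other adipocyte markers 0 were called higher and 1 lower in Ex3abERKO, and of 12 endothelial markers 1 was called higher and 5 lower. The adipocyte counts and the endothelial count of higher genes are near the shares of all features (10.7% higher, 11.7% lower). Their part in the Cd36 difference was not tested.

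Marco, a scavenger receptor that binds bacteria, differed between Ex3abERKO and the rest. It stood at 0.91, 0.69, 0.85 and 1.18 on the Ex3abERKO arrays, 0.72, -0.45, -0.48 and -0.90 on the Ex3aERKO arrays, -0.88, -1.17, -0.92 and -0.98 on the Ex3bERKO arrays, and -1.34, -1.16, -1.04 and -0.67 on the control arrays. Only Ex3aERKO 1 reached the Ex3abERKO range, and Ex3bERKO lay level with control (difference 0.06 ± 0.27). The Ex3abERKO difference was 1.96 ± 0.27 from control (adjusted p = 0.000266) and 1.19 ± 0.27 from Ex3aERKO (adjusted p = 0.0165, lost in 3 of 30 alternatives). Mrc1, the mannose receptor CD206, was 1.76 ± 0.38 higher in Ex3abERKO (adjusted p = 0.00436) and 1.30 ± 0.38 higher in Ex3aERKO, where its adjusted p of 0.0491 was lost in 16 of 30 alternatives. Msr1, another scavenger receptor, was 1.24 ± 0.37 higher in Ex3abERKO (adjusted p = 0.0262, lost in 7 of 30 alternatives), and Stab1, a clearance receptor of macrophages and sinusoidal endothelium, 1.02 ± 0.21 (adjusted p = 0.00296).

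Folr2 and Timd4 mark long-lived resident macrophages in several mouse tissues. Lyve1, a gene of resident macrophages and lymphatic vessels outside the 43, was called higher in Ex3abERKO, as given below. Folr2, a folate receptor, stood at -0.74, -0.78, -1.14 and -1.29 on the Ex3abERKO arrays, 0.47, 0.11, -0.26 and -1.69 on the Ex3aERKO arrays, -0.12, 0.19, -0.60 and -0.66 on the Ex3bERKO arrays, and -0.62, -0.90, 0.03 and -0.41 on the control arrays. It was the only one of the 43 genes with its lowest mean in Ex3abERKO, with a difference of -0.52 ± 0.38 from control (adjusted p = 0.376), negative on all 3 slides that held both groups. Timd4, a receptor for phosphatidylserine on dying cells, stood at -4.29, -4.82, -4.30 and -3.37 on the Ex3abERKO arrays, -4.82, -4.87, -5.03 and -5.11 on the Ex3aERKO arrays, -3.94, -4.57, -3.85 and -4.33 on the Ex3bERKO arrays, and -4.62, -4.03, -4.36 and -4.34 on the control arrays. All 4 Ex3aERKO arrays lay below all 4 control arrays, an order that 9.48% of all features showed, and the difference of -0.62 ± 0.26 was not called (adjusted p = 0.177). Timd4 was the only one of the 43 genes with that order.

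**Figure D3:**
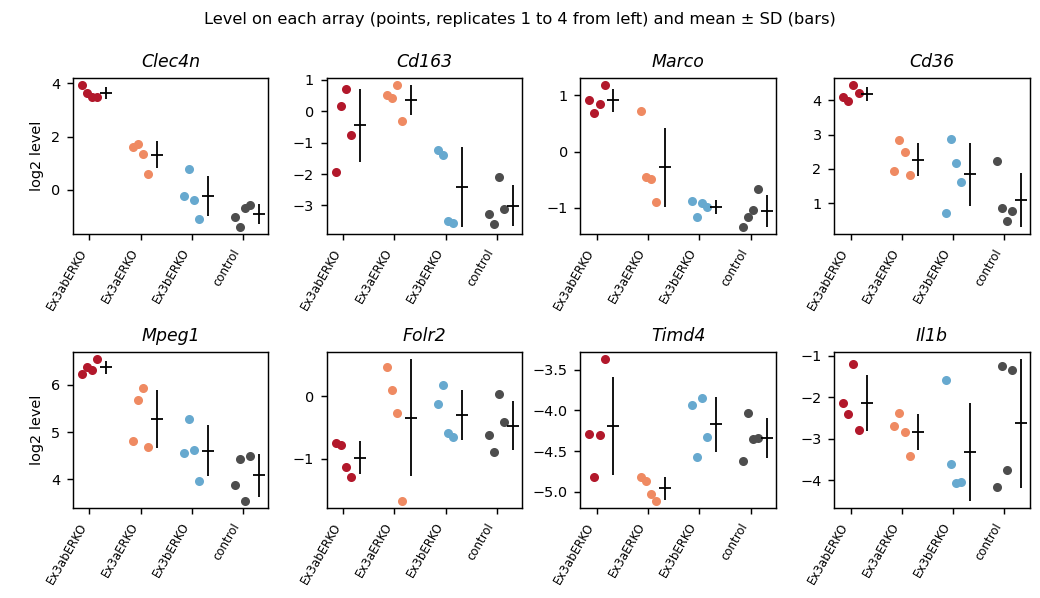
Log2 level of 8 of the genes on each array (points, 4 per group) with the group mean ± SD (bars), in Ex3abERKO, Ex3aERKO, Ex3bERKO and control. The Ex3abERKO points lie above all others for Clec4n, Cd36 and Mpeg1. By group mean, Cd163 is highest in Ex3aERKO and Folr2 lowest in Ex3abERKO, though in each case the points overlap those of another group.

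The Fc receptors and ITAM adaptors were called higher in Ex3abERKO for 4 of 5 genes and in Ex3aERKO for 1, Fcgr2b. Tyrobp encodes DAP12, the adaptor of TREM2 and related receptors. It stood at 5.13, 4.86, 5.82 and 5.44 on the Ex3abERKO arrays, 4.07, 4.55, 4.67 and 3.72 on the Ex3aERKO arrays, 3.96, 4.86, 4.03 and 2.98 on the Ex3bERKO arrays, and 3.21, 3.44, 2.74 and 3.80 on the control arrays. The Ex3abERKO arrays lay above the Ex3aERKO and control arrays, and the Ex3abERKO difference from control was 2.02 ± 0.36 (adjusted p = 0.00127). Fcer1g, the gamma chain shared by activating Fc receptors, was 1.48 ± 0.38 higher in Ex3abERKO (adjusted p = 0.0129).

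Fcgr2b, the inhibitory IgG receptor, and Fcgr3, an activating one, are near-identical over part of their length, and lie on chromosome 1 with 1 protein-coding gene between them, so that cross-hybridisation of their probes was not tested. Fcgr2b stood at 2.85, 3.07, 3.38 and 2.89 on the Ex3abERKO arrays, 2.37, 2.79, 2.53 and 1.41 on the Ex3aERKO arrays, 1.99, 2.21, 1.89 and 1.60 on the Ex3bERKO arrays, and 1.29, 1.53, 0.43 and 1.58 on the control arrays. Its difference from control was 1.84 ± 0.30 in Ex3abERKO (adjusted p = 0.000704), 1.06 ± 0.30 in Ex3aERKO (adjusted p = 0.0413, lost in 14 of 30 alternatives) and 0.72 ± 0.30 in Ex3bERKO (adjusted p = 0.412). Fcgr3 was 1.73 ± 0.39 higher in Ex3abERKO (adjusted p = 0.00623). Fcgr1, the high-affinity IgG receptor, was not called in any comparison. It stood at 2.57, 2.36, 3.20 and 2.18 on the Ex3abERKO arrays, 2.24, 2.32, 2.29 and 1.07 on the Ex3aERKO arrays, 2.28, 2.06, 1.70 and 0.47 on the Ex3bERKO arrays, and 1.13, 2.07, 1.77 and 2.52 on the control arrays. Control 4 lay inside the Ex3abERKO range, and the Ex3abERKO difference was 0.71 ± 0.41 (adjusted p = 0.253).

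All 6 pattern-recognition and complement receptors were called higher in Ex3abERKO, and Clec7a and Clec4n in Ex3aERKO. Clec4n encodes dectin-2, a C-type lectin that binds fungal mannans and signals through the Fc receptor gamma chain, and had the largest Ex3abERKO difference of the 43 genes. It stood at 3.95, 3.64, 3.49 and 3.48 on the Ex3abERKO arrays, 1.63, 1.71, 1.34 and 0.60 on the Ex3aERKO arrays, -0.23, 0.78, -0.39 and -1.08 on the Ex3bERKO arrays, and -1.02, -1.40, -0.68 and -0.56 on the control arrays. All Ex3abERKO arrays lay far above all others, and the Ex3aERKO arrays above all 4 control arrays. The difference from control was 4.55 ± 0.34 in Ex3abERKO (adjusted p = 3.82e-06), a fold of 23.5, and 2.23 ± 0.34 in Ex3aERKO (adjusted p = 0.00144), a fold of 4.71. The Ex3abERKO difference from Ex3aERKO was 2.32 ± 0.34 (adjusted p = 0.00155). These 3 calls held in all 30 alternatives. The interaction was 1.63 ± 0.48 (adjusted p = 0.0829), and it was called without Ex3bERKO 2 and with array weights. The interaction of Marco was called without Ex3aERKO 1.

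Clec7a encodes dectin-1, the receptor for fungal beta-glucans. It stood at 5.08, 5.08, 5.41 and 5.34 on the Ex3abERKO arrays, 3.89, 4.75, 4.64 and 3.70 on the Ex3aERKO arrays, 3.07, 4.36, 4.11 and 3.44 on the Ex3bERKO arrays, and 2.87, 3.28, 2.39 and 3.35 on the control arrays. Every Ex3abERKO array lay above all others, and the difference from control was 2.25 ± 0.31 in Ex3abERKO (adjusted p = 0.000266) and 1.27 ± 0.31 in Ex3aERKO (adjusted p = 0.0219, lost in 5 of 30 alternatives). Cd14, the co-receptor for lipopolysaccharide, was 1.67 ± 0.34 higher in Ex3abERKO (adjusted p = 0.00328). Tlr2, a receptor for bacterial lipoproteins, was 1.58 ± 0.27 higher (adjusted p = 0.000898), and Tlr4, the receptor for lipopolysaccharide, 1.59 ± 0.33 (adjusted p = 0.00351). In Ex3abERKO against Ex3aERKO, Tlr4 lay at the threshold (adjusted p = 0.04999) and lost its call in 23 of 30 alternatives.

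C5ar1, the receptor for the complement fragment C5a, was dim. It stood at -5.60, -5.03, -5.27 and -4.89 on the Ex3abERKO arrays, -5.46, -5.56, -5.54 and -5.62 on the Ex3aERKO arrays, -5.72, -5.43, -5.37 and -5.76 on the Ex3bERKO arrays, and -5.76, -5.80, -5.63 and -6.92 on the control arrays. Its Ex3abERKO difference of 0.83 ± 0.25 (adjusted p = 0.0259) turned to -0.36 (adjusted p = 0.617) with normexp background correction.

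All 7 lysosomal and phagosomal genes were called higher in Ex3abERKO, and Slc11a1 and Ncf1 in Ex3aERKO. Ctss encodes cathepsin S, a protease of antigen-presenting cells. It stood at 7.67, 7.61, 7.81 and 7.67 on the Ex3abERKO arrays, 6.49, 6.97, 7.27 and 6.28 on the Ex3aERKO arrays, 6.21, 7.06, 6.36 and 6.08 on the Ex3bERKO arrays, and 5.77, 6.07, 5.10 and 6.40 on the control arrays. All Ex3abERKO arrays lay above all others, and the difference from control was 1.85 ± 0.29 (adjusted p = 0.000527). Ctsb, cathepsin B, was 1.30 ± 0.18 higher in Ex3abERKO than in control (adjusted p = 0.000239) and 0.74 ± 0.18 higher than in Ex3aERKO (adjusted p = 0.0196, lost in 6 of 30 alternatives). Ctsc, cathepsin C, was 1.24 ± 0.37 higher than in control (adjusted p = 0.0278), and its call was lost when any one of 6 arrays was left out.

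Lyz2 encodes lysozyme M and stood at 8.02, 8.0, 8.04 and 8.12 on the Ex3abERKO arrays, 7.72, 7.64, 7.91 and 7.74 on the Ex3aERKO arrays, 7.30, 7.76, 7.83 and 7.37 on the Ex3bERKO arrays, and 7.56, 7.26, 7.08 and 7.53 on the control arrays. The Ex3abERKO difference was 0.69 ± 0.15 (adjusted p = 0.00568), the smallest called in Ex3abERKO. The 2 Lyz2 probes disagreed in size, and the dimmer one gave 2.25. Lyz1 is a near-identical copy, so the value of either probe is uncertain.

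Slc11a1 encodes NRAMP1, a metal transporter of the phagosome. It stood at 4.01, 3.67, 3.14 and 4.18 on the Ex3abERKO arrays, 1.97, 2.97, 2.98 and 2.06 on the Ex3aERKO arrays, 1.48, 2.69, 2.13 and 1.57 on the Ex3bERKO arrays, and 1.40, 1.65, 0.78 and 1.54 on the control arrays. The difference from control was 2.41 ± 0.33 in Ex3abERKO (adjusted p = 0.000261) and 1.15 ± 0.33 in Ex3aERKO (adjusted p = 0.0482). Cybb (gp91phox) and Ncf1 (p47phox) are subunits of the phagocyte NADPH oxidase, and were 2.17 ± 0.37 and 1.59 ± 0.28 higher in Ex3abERKO (adjusted p = 0.000918 and 0.00105). In Ex3aERKO, Ncf1 was 0.96 ± 0.28 higher (adjusted p = 0.0464), and the Ncf1 and Slc11a1 calls were each lost in 19 of 30 alternatives.

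The secreted inflammatory cytokines were not called in any comparison. Il1b encodes interleukin-1 beta and stood at -2.14, -2.41, -1.19 and -2.79 on the Ex3abERKO arrays, -2.68, -2.37, -2.84 and -3.42 on the Ex3aERKO arrays, -1.57, -3.60, -4.07 and -4.04 on the Ex3bERKO arrays, and -4.16, -1.24, -3.76 and -1.34 on the control arrays. The control arrays had the widest spread of the 4 groups (SD 1.55), and the Ex3abERKO difference was 0.49 ± 0.69 (adjusted p = 0.685). Tnf encodes tumour necrosis factor and stood at -2.46, -2.41, -3.10 and -1.82 on the Ex3abERKO arrays, -3.01, -2.38, -2.75 and -3.11 on the Ex3aERKO arrays, -2.22, -2.89, -3.22 and -3.19 on the Ex3bERKO arrays, and -3.37, -2.48, -3.54 and -3.33 on the control arrays. All groups overlapped, and the Ex3abERKO difference was 0.73 ± 0.31 (adjusted p = 0.106). For neither gene does the missed threshold show that the levels were alike.

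For 22 of the 43 genes a second probe was measured, 26 further probes in all. In Ex3abERKO against control, all 26 had the sign of the probe used, and of the 25 that belong to called genes 18 also passed the threshold. In Ex3aERKO against control 24 of 26 had the same sign, and 3 of the 5 of called genes passed.

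Other genes of the same pathways were also higher in Ex3abERKO. They came from 7 lists of genes outside the 43, chosen with earlier results of these data known. Over all features, 10.7% were called higher and 11.7% lower in Ex3abERKO against control. Among complement and macrophage identity genes, 10 of 14 were called higher than in control and 0 lower, with a median difference of 1.22. They included Cd68, a lysosomal glycoprotein of macrophages (2.70 ± 0.38, adjusted p = 0.0003), and Lyve1, a hyaluronan receptor of resident macrophages and lymphatic vessels (2.26 ± 0.37, adjusted p = 0.000735). The complement genes C1qa, C1qb and C1qc were called too, with differences of 0.93, 0.97 and 1.32. Cx3cr1, the fractalkine receptor, was not called, with a difference of 0.07.

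Of 15 genes acting downstream of ITAM receptors, 11 were called higher in Ex3abERKO and 0 lower (median 1.53). Trem2, a lipid receptor that signals through the Tyrobp adaptor, averaged 6.07 ± 0.27 in Ex3abERKO and 3.35 ± 0.27 in control (SD, n = 4 each), a difference of 2.72 ± 0.37 (adjusted p = 0.00023). Btk, a tyrosine kinase of B cells and myeloid cells, was 2.53 ± 0.37 higher (adjusted p = 0.000357). Of 5 other NADPH oxidase genes 4 were called higher (median 1.89), among them Ncf4 (2.12 ± 0.37) and the membrane subunit Cyba (1.90 ± 0.28), while Nox4 was not (difference -0.48).

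Of 14 other Toll-like receptor and adaptor genes, 8 were called higher and 0 lower (median 1.08). Lbp, which carries lipopolysaccharide to CD14, was 2.75 ± 0.51 higher (adjusted p = 0.0016), and Cd180, a Toll-like receptor homologue of B cells and macrophages, 2.41 ± 0.41. Of 14 other lysosomal genes 13 were called higher (median 1.16), led by Ctsk, cathepsin K (2.20 ± 0.37), and Lipa, the lysosomal acid lipase (1.80 ± 0.41). Of 15 other cytokines and receptors 7 were called higher (median 0.77), led by Il1a, interleukin-1 alpha (2.49 ± 0.38, adjusted p = 0.000442), and Il1r2, the interleukin-1 decoy receptor (1.99 ± 0.37). Among 9 factors related to PU.1 or acting with it, 6 were called higher (median 1.91), among them Spib (2.90 ± 0.58) and Ikzf1 (2.45 ± 0.42), both also used by lymphocytes. Cebpa, Cebpb and Runx1 were not called, with differences of -0.72, -0.49 and -0.18.

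In Ex3aERKO against control, fewer genes of the same lists were called higher and 0 lower: 2 of 14 complement and macrophage identity genes, 0 of 15 downstream of ITAM receptors, 1 of 5 NADPH oxidase genes, 2 of 14 Toll-like receptor genes, 3 of 14 lysosomal genes, 1 of 15 cytokines and receptors and 0 of 9 factors. Over all features, 3.86% were called higher and 4.2% lower. The counts of 0 of 15, 1 of 15 and 0 of 9, and 0 lower in any one list, are near these shares and say nothing about those lists. The largest difference called was that of Lbp (2.57 ± 0.51, adjusted p = 0.00633), followed by Ctsk (1.60 ± 0.37), Cd68 (1.54 ± 0.38) and Il1a (1.5 ± 0.38). On the arrays labelled Ex3bERKO, 0 genes of the 7 lists were called in either direction by limma, which with 0.398% and 0.656% of all features called says nothing about the lists.

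**Figure D4:**
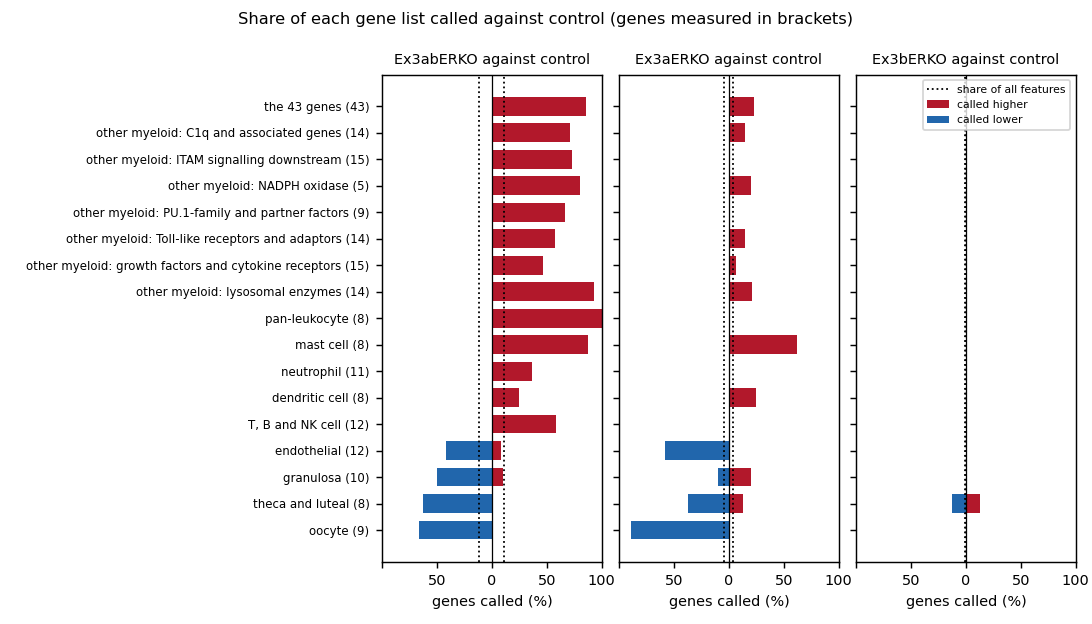
Percent of the measured genes of each list (rows, number measured in brackets) called higher (red, to the right) or lower (blue, to the left) than control in Ex3abERKO, Ex3aERKO and Ex3bERKO (panels), with dotted lines at the share of all features called. The red bars of the myeloid lists lie far beyond the dotted line in Ex3abERKO, and the Ex3bERKO panel is almost empty.

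Several lists of markers of other leukocytes were also higher in Ex3abERKO. For neutrophil and dendritic cell genes the summed signals overlapped control, while the median levels of the arrays did not. In Ex3abERKO all 8 pan-leukocyte genes (median difference 1.74, and 1.80 for Ptprc, CD45) were called higher than in control, against 10.7% of all features. Their summed signal, in units of each array's 75th percentile, was 66.2 to 101.5 on the Ex3abERKO arrays, 20.4 to 48.7 on the Ex3aERKO arrays, 16.2 to 57.6 on the Ex3bERKO arrays, and 17.2 to 37.7 on the control arrays. One of these genes, Rac2, is also in the NADPH oxidase list. The summed signal of the 43 genes themselves was 925.5 to 1044.8 on the Ex3abERKO arrays, 477.3 to 753.2 on the Ex3aERKO arrays, 379.6 to 653.3 on the Ex3bERKO arrays, and 291.4 to 457.4 on the control arrays. Such a sum is weighted to the brightest probes. The 7 lysosomal and phagosomal genes alone summed to 591.4 to 646.5 on the Ex3abERKO arrays and 217.2 to 335.8 on the control arrays.

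The shares of all features called higher than control were 10.7% in Ex3abERKO and 3.86% in Ex3aERKO. Mast cell genes were called higher in Ex3abERKO for 7 of 8 (median 3.86) and in Ex3aERKO for 5 of 8 (median 1.84). Their summed signal ran from 23.9 to 37.1 on the Ex3abERKO arrays, 8.50 to 14.5 on the Ex3aERKO arrays, 4.61 to 5.92 on the Ex3bERKO arrays and 3.43 to 4.93 on the control arrays. Cma1, mast cell chymase, averaged 3.56 ± 0.15 in Ex3abERKO, 0.99 ± 0.83 in Ex3aERKO and -0.96 ± 0.77 in control (SD, n = 4 each). Of the T, B and NK cell genes 7 of 12 were called higher in Ex3abERKO (median 1.67), and their summed signal was 8.10 to 30.7, against 2.02 to 4.10 in control. Of the neutrophil genes 4 of 11 were called higher, with a summed signal of 2.92 to 25.2 in Ex3abERKO, against 0.84 to 3.23 in control. Their median log2 level per array was -3.37 to -1.60 in Ex3abERKO and -5.61 to -4.68 in control. Of the dendritic cell genes 2 of 8 were called higher, and their summed signal was 2.96 to 3.95 in Ex3abERKO, against 2.17 to 4.73 in control, where the groups overlapped. Their median log2 level per array was -2.93 to -2.26 in Ex3abERKO and -4.29 to -3.39 in control, without overlap.

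Markers of ovarian cells changed as well. Over all features, 10.7% were called higher and 11.7% lower in Ex3abERKO, and 3.86% and 4.2% in Ex3aERKO. In Ex3abERKO 5 of 10 granulosa markers were called lower and 1 higher, with a summed signal of 56.8 to 108.2, against 122.3 to 212.1 in control. Of 8 theca and luteal markers 5 were called lower, with 62.7 to 160.5 against 323.5 to 628.9 in control, and of 9 oocyte markers 6 were called lower, with 4.31 to 6.76 against 14.7 to 31.8. In Ex3aERKO 8 of the 9 oocyte markers were called lower, while the summed granulosa signal was 161.1 to 353.0, and that of theca and luteal markers 178.8 to 237.1. The median log2 level of the theca and luteal markers was 3.16 to 3.74 on the Ex3aERKO arrays, inside the control range of 2.99 to 5.80. Of 8 stromal markers 4 were called higher and 1 lower in Ex3abERKO, with a summed signal of 301.0 to 533.4, against 158.6 to 228.3 in control. Of 8 ovarian surface epithelium markers 2 were called higher in Ex3abERKO and 3 in Ex3aERKO. Their summed signal was 36.7 to 60.5 on the Ex3abERKO arrays, 27.7 to 84.3 on the Ex3aERKO arrays, 17.2 to 73.9 on the Ex3bERKO arrays and 15.6 to 22.8 on the control arrays. Krt7, a keratin of simple epithelia, was 1.76 ± 0.46 higher in Ex3abERKO (adjusted p = 0.014) and 2.07 ± 0.46 higher in Ex3aERKO (adjusted p = 0.0128). The part of these other cell types in the differences of the 43 genes was not tested.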

How the data were processed

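The deposited intensity of each spot is the processed signal of Agilent Feature Extraction, version 9.5.3.1 per the file headers and 9.5 per the submitters' processing notes. The deposited value table held the same intensity for all 41174 probes (tolerance 0.001), linear and uncentred, with column medians of 149 to 253. Each processed signal was divided by its array's 75th percentile over 43379 non-control spots, floored at -8.88 (log2) and logged. Outlier spots were left out (54 to 106 per array). Probes well above background on at least 4 of 16 arrays were kept (36224), and the brightest probe stood for each feature (24372, of which 18297 had a symbol). limma 3.58.1 in R 4.3.3 (lmFit, eBayes, 1 mean per group, 12 residual degrees of freedom) gave 7 contrasts, with p-values two-sided and Benjamini-Hochberg adjusted. The number of arrays limits the precision. The steps were tested on simulated data. There were 30 alternatives: 16 left out 1 array each, and the other 14 changed the background correction, scaling, filter, probe rule, value source, spread model, block or arrays.

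All 43 members are named; from each list of other myeloid genes, the called genes with the largest differences are named, and others were chosen after their values were seen. The members and the lists were chosen with earlier results of these data known. Replicate numbers did not pair the arrays.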

Additional observations from a re-analysis of the deposited data

Results flagged for a closer look

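In 10 of the 172 groups of 4 arrays (43 genes, 4 groups), 1 array lay far from the other 3 by Dixon's test, which is 5.81% where chance flags about 1 in 20. The cause of none was tested. In Ex3abERKO, array 3 was low for Csf1r (1.80, next 2.96) and for Stab1 (2.92, next 3.27) and high for Mrc1 (3.31, next 2.48), and array 1 was low for Cd86 (-2.30, next -1.78). Ex3aERKO 4 was low for Cd86 (-2.76, next -2.16) and for Fcgr1 (1.07, next 2.24). Ex3bERKO 4 was low for Adgre1 (1.59, next 3.06) and for Cd14 (-1.19, next 0.20). Control 4 was low for C5ar1 (-6.92, next -5.80) and high for Cybb (1.00, next 0.06). Cybb is a phagocyte gene, and control 4 was also the array with the highest signal of erythroid genes among the controls.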

How the results depend on the processing

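In Ex3abERKO against control, 28 of the 37 calls held in all 30 alternatives, and the count ran from 33 to 37 leaving out 1 array and from 30 to 39 under the other alternatives. In the other comparisons the counts moved more, and the cause was not tested. Leaving out 1 array gave 3 to 21 genes called higher in Ex3aERKO against control, 1 to 13 in Ex3abERKO against Ex3aERKO (with 0 to 1 lower), 19 to 33 in Ex3abERKO against Ex3bERKO, 0 to 3 in Ex3aERKO against Ex3bERKO and 0 to 1 in the interaction. In Ex3aERKO against control the count of 10 became 6 with normexp background correction, 5 with median scaling, 31 with array weights, 5 with only the groups compared and 1 without Ex3aERKO 2, Ex3abERKO 2 and control 4. In Ex3abERKO against Ex3aERKO the count of 9 became 4 with normexp, 5 with quantile normalization, 14 with a trended and robust spread, 3 with only the groups compared and 2 without those 3 arrays. In Ex3abERKO against Ex3bERKO the count of 30 became 14 with slide as a fixed block. In Ex3aERKO against Ex3bERKO the count of 2 became 0 with slide as a fixed block, without those 3 arrays and with only the groups compared, 1 with normexp and 5 with array weights. Array weights gave 1 gene in the interaction. C5ar1 reversed in Ex3abERKO against control with normexp (-0.36).

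Same-numbered arrays did not deviate together (median correlation -0.07 over 24 pairs, and 4 of 16 arrays correlated best with their own number). Arrays of 1 slide did (0.28 over 22 pairs). With a replicate block the counts were 36 in Ex3abERKO and 7 in Ex3aERKO against control, 9 in Ex3abERKO against Ex3aERKO, 27 in Ex3abERKO against Ex3bERKO and 2 in Ex3aERKO against Ex3bERKO. Over all features, the number called ran from 564 to 5181 around 1964 in Ex3aERKO, from 63 to 803 around 257 in Ex3bERKO and from 3121 to 8555 around 5446 in Ex3abERKO against control, with array weights always highest. Against Ex3aERKO and Ex3bERKO, Ex3abERKO had 624 to 2585 around 1897 and 1931 to 6131 around 4070, Ex3aERKO against Ex3bERKO 121 to 1521 around 575, and the interaction 253 to 1766 around 883.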
